A study of Mus musculus with 6 samples.

Results

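The Eph receptors, ephrins, Slits, Robos, Srgap proteins, netrins, netrin-G proteins, Dcc, neogenin, Unc5 receptors, Rgm ligands and Draxin make up 47 genes of the 22001 in the deposited count table, chosen by gene symbol. They are 24 receptors, 20 ligands and 3 intracellular effectors. Their RNA was measured in mouse neocortical cells that carried the red fluorescent protein mCherry and were collected by fluorescence-activated sorting at E14.5, 24 h after in utero electroporation at E13.5, a method that drives injected plasmid into the cells lining the ventricle. In the Insm1 group (3 libraries) the plasmid encoded both Insm1, a zinc-finger transcription factor of neural progenitors, and mCherry. In the control group (3 libraries) it encoded mCherry only. The sort was therefore aimed at cells that took up plasmid and their progeny of the first day. RNA of erythroid and microglial markers was measured too (below). The labels name neither the mouse strain nor the plasmids' promoter nor the number of embryos behind a library. Libraries are numbered without a statement that each had its own litter. Tests over them cover the variation among these 6 libraries, part of which may be technical.

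These families steer axons and migrating neurons. Eph receptors are receptor tyrosine kinases that bind ephrins on neighbouring cells, EphA receptors mainly the lipid-anchored ephrin-A proteins and EphB receptors mainly the transmembrane ephrin-B proteins, and signals run into both cells. Slits are secreted proteins that act through Robo receptors, whose cytoplasmic tails bind Srgap proteins, regulators of membrane shape. Netrins attract through Dcc and neogenin and repel through Unc5 receptors, Draxin binds Dcc and netrin, Rgm ligands bind neogenin, and netrin-G proteins bind the Lrrc4 family of synaptic adhesion proteins. In the developing cortex these genes act in progenitor contacts at the ventricle, in the radial migration of neurons and in the outgrowth of cortical axons.

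Promoters of 3 genes that changed are shown as examples, since their RefSeq start coincides with the annotated gene start and the 250 bases before it hold no exon base of it in GENCODE M21. They read 5′ to 3′ on the strand of the gene, from RefSeq on GRCm38.p6, and capitals mark CAGGGGG or its reverse complement CCCCCTG, the core of the binding matrix published for human INSM1. The window of Epha3 is at chr16:63864176-63864425 on the minus strand, that of Robo2 at chr16:74411826-74412075 on the minus strand and that of Unc5a at chr13:54949161-54949410 on the plus strand.
Epha3: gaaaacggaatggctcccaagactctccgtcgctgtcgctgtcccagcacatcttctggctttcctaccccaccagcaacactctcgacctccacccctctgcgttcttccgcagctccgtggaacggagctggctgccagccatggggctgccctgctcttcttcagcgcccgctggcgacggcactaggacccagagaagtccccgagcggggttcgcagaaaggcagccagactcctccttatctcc
Robo2: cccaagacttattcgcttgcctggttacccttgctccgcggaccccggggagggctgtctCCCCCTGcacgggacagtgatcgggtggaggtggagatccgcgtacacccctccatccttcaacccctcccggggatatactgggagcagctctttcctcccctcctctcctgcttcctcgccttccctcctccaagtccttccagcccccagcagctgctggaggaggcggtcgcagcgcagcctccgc
Unc5a: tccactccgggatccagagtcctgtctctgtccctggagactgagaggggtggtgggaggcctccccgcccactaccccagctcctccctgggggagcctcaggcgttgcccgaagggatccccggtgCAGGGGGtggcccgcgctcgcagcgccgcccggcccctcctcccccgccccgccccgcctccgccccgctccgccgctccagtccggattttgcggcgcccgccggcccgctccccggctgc
The Robo2 and Unc5a windows each held 1 match and the Epha3 window held 0. Of 48 windows of 41 of the 47 genes, 8.33% held CAGGGGG on either strand (1 window each of Ntn4, Robo2, Slit2 and Unc5a), against 5.84% of 32851 windows of all genes. The E-box CAGATG, which was read on both strands and cannot overlap CAGGGGG, was in 8.33% of the windows of the guidance genes (Efna3, Epha1, Epha6 and Ntng2) and 14.4% of all windows. The windows of the guidance genes had a median GC content of 64.6%, against 52.4% for all windows. A match is a description of letters and not a binding site.

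Library totals lay between 30017645 and 31645135 counts. Endogenous and plasmid Insm1 cannot be told apart, and Insm1 measured 1569.6, 2173 and 1436 CPM (counts scaled to library size by TMM) in the Insm1 libraries, against 222, 331 and 371 CPM in the controls, which is 5.61-fold higher (edgeR quasi-likelihood test, adjusted p = 0.0122). Of 9 apical progenitor markers (Hes5 the most abundant) 4 fell (Slc1a3, Fabp7, Vim and Nes), and their sum was 2309.9 to 2818 CPM in Insm1 libraries and 3069.5 to 3566 CPM in controls. Of 9 projection neuron markers (Tubb3 the most abundant) 5 rose, with sums of 7621 to 8271 CPM in Insm1 libraries and 6439 to 6603 CPM in controls. Of 7 basal progenitor markers (Sstr2 the most abundant) 3 rose (Nhlh1, Mfng and Sstr2). Their sums overlapped, with 1708 to 1986 CPM in Insm1 libraries and 1559 to 1798 CPM in controls. Eomes, Neurog2, Gadd45g and Btg2 were not called (edgeR adjusted p from 0.631 to 0.884). Over all genes tested, 1.23% were called higher and 2.12% lower. Sums for endothelium (led by Egfl7) were 3.2 to 4.44 CPM in Insm1 libraries and 3.1 to 3.76 CPM in controls. Those for pericytes and meninges (led by Col1a1) were 2.92 to 5.2 CPM in Insm1 libraries and 3.39 to 5.1 CPM in controls. Microglial markers, led by Csf1r, summed to 8.69 to 29.9 CPM in Insm1 libraries and 1.04 to 57.7 CPM in controls, and erythroid markers, led by Hba-a1, to 1713 to 3669.9 CPM in Insm1 libraries and 186 to 3133 CPM in controls. The part of these cell types in the results below was not tested. In sorted bulk cells, fewer cells of a type and less RNA per cell cannot be told apart.

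Of the 47 genes, 44 had enough counts to be tested, and 7 of those passed edgeR's quasi-likelihood test at a Benjamini-Hochberg adjusted p below 0.05 over all 13560 genes tested. That is 15.9% of the 44, against 3.35% of all genes tested. Epha3, Ephb6, Robo2 and Rgmb rose (4 genes, with 1.23% of all genes called higher), and Unc5a, Slit1 and Slit3 fell (3 genes, with 2.12% of all genes called lower). At an unadjusted p below 0.05 there were 14 of the 44 and 2339 of the 13560. The 3 Insm1 libraries lay wholly apart from the 3 controls in 12 of the 44 genes, or 27.3%, against 22.2% of all genes, with 6 higher (10.4% of all genes) and 6 lower (11.8% of all genes). The median log2 fold change of the 44 was -0.06, that of all genes tested was -0.009. A gene can pass the count filter through 1 group alone, so the 44 do not stand for the 47. Slit3 (called, and lower without overlap) and Epha2 (lower without overlap) passed it through the controls. The genes were chosen with earlier results of these data known, so these shares are a description and not a test. Without control 3, 0 of the 44 were called (edgeR, 11 at an unadjusted p below 0.05, 116 genes of all called). DESeq2 on all libraries, which fitted all 47, called 9 of them and 1017 genes of all. Limma on log2(TPM + 1) of the deposited TPM called 0 of 43 (12 at an unadjusted p below 0.05, 100 genes of all called).

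**Figure D1:**
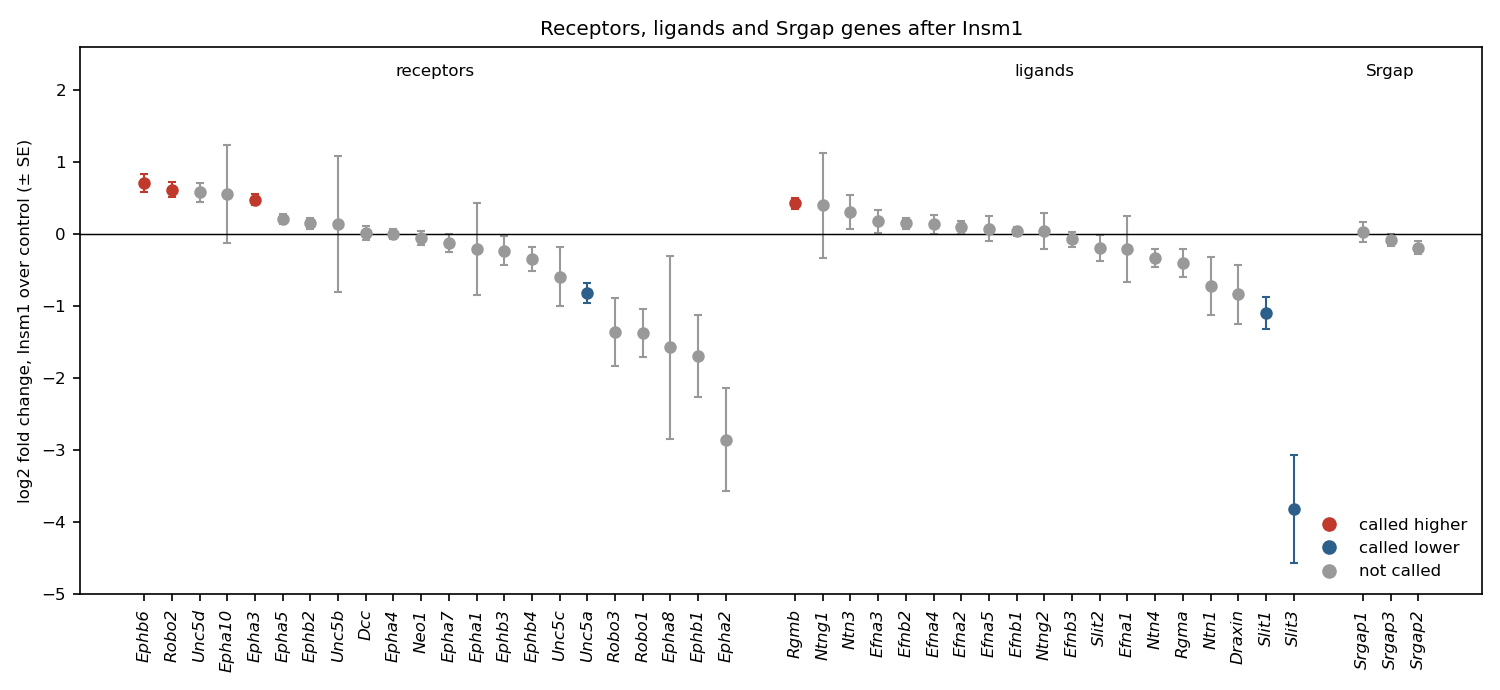
Log2 fold change of each tested gene, Insm1 over control, with its standard error (vertical axis), for receptors, ligands and Srgap genes, each class sorted from high to low. Ephb6, Robo2, Epha3 and Rgmb are the 4 genes called higher, Unc5a, Slit1 and Slit3 the 3 called lower, and grey points were not called.

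Epha3, an EphA receptor of ephrin-A ligands, rose. It measured 679.9, 799 and 721 CPM in the Insm1 libraries, against 504, 574 and 504 CPM in the controls, and every Insm1 library was above every control. The mean was 733 ± 60.4 CPM in Insm1 cells and 527 ± 40.2 CPM in controls (SD, n = 3 each), 1.39-fold higher, with a log2 fold change of 0.48 (SE 0.08) and an edgeR adjusted p of 0.011. Without control 3 its adjusted p was 0.0546. The gene lies on chromosome 16 at 63543534 to 63864175 on the minus strand (GRCm38, GENCODE M21).

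Levels of different genes can be set side by side only per length, which was done as TPM from the counts and the annotated exon length (exon-length TPM), with the reserve that intronic reads, if they were counted, would raise long genes. On that scale Epha3 made up 47.4, 47.3 and 47.9% of the summed EphA receptor level in the Insm1 libraries, against 38.6, 41.8 and 40.5% in the controls, so the share was higher in every Insm1 library. Epha4, a receptor of both ephrin classes, was next, with 31.6, 31.0 and 30.6% in Insm1 libraries and 38.2, 34.8 and 36.2% in controls. It measured 421, 485 and 426 CPM in Insm1 libraries and 462, 442 and 418 CPM in controls, with overlap. Its own exon-length level was 194 ± 14.9 TPM in Insm1 cells and 199.6 ± 8.17 TPM in controls (SD, n = 3 each), with an edgeR adjusted p of 0.965 on the counts. Epha5, the next in level, measured 483 ± 45.6 CPM in Insm1 cells and 418 ± 13.9 CPM in controls (SD, n = 3 each), lay apart between the groups and did not pass (adjusted p = 0.165). Epha7 measured 87.8 ± 14.1 CPM in Insm1 cells and 95.6 ± 11.3 CPM in controls (SD, n = 3 each), with overlapping groups (adjusted p = 0.704).

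The remaining EphA genes were near the floor of detection. Epha2 had 2, 5 and 2 counts in the Insm1 libraries and 11, 26 and 30 counts in the controls. The groups did not overlap, and the summed counts of 9 in the Insm1 libraries and 67 in the controls have a ratio, scaled to library size, of 0.131 (exact 95% interval 0.0573 to 0.263, counting error only). Its adjusted p was 0.0655, so it did not pass, and it passed the count filter through the controls. Epha1, Epha8 and Epha10 had means from 0.172 to 0.528 CPM in Insm1 cells and from 0.357 to 0.575 CPM in controls, with adjusted p between 0.612 and 0.92. Epha6 was not tested, at 0 to 0.162 CPM in Insm1 libraries and 0 to 0.356 CPM in controls. Epha1 exons overlap those of Zyx on the opposite strand, and this library marks no strand. In all, 1 of the 8 tested EphA receptors rose, 0 fell and 7 did not pass (edgeR), with 1.23% of all genes called higher and 2.12% lower. At an unadjusted p below 0.05 there were 3 of the 8, against 2339 of the 13560 genes tested. Counts over so few genes are a description. DESeq2 also called only Epha3 among the EphA receptors.

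Ephb6, the kinase-inactive member of the EphB class, rose. It measured 68.5, 84.1 and 78.8 CPM in the Insm1 libraries and 56.0, 44.5 and 40.9 CPM in the controls. The groups were apart, with means of 77.1 ± 7.93 CPM in Insm1 cells and 47.1 ± 7.88 CPM in controls (SD, n = 3 each), 1.64-fold higher, with a log2 fold change of 0.71 (SE 0.13) and an edgeR adjusted p of 0.0158. It was no longer called without Insm1 2 (0.0669), Insm1 3 (0.0621) or control 3 (0.076). Ephb6 had the highest exon-length level of the class, with 55.5, 60.7 and 60.7% of the summed EphB level in Insm1 libraries and 43.0, 42.1 and 37.2% in controls, so its share was higher in each Insm1 library.

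Ephb1, a receptor known for axon repulsion at the optic chiasm, measured 13.1, 11.6 and 7.56 CPM in Insm1 libraries, against 53.8, 12.0 and 38.6 CPM in controls, with control 2 inside the range of the Insm1 libraries. Its log2 fold change was -1.69 (SE 0.57, edgeR adjusted p = 0.216), and -2.1 without control 2 (adjusted p = 0.00129). In the other edgeR fits with a library left out the adjusted p of Ephb1 was 0.318 to 0.5. Ephb2 measured 96.2 ± 6.19 CPM in Insm1 cells and 86.8 ± 5.8 CPM in controls (SD, n = 3 each). Ephb3 measured 6.71 ± 1.0 CPM in Insm1 cells and 7.86 ± 0.992 CPM in controls (SD, n = 3 each). Ephb4, whose exons overlap those of Zan on the other strand, measured 18.5 ± 2.89 CPM in Insm1 cells and 23.4 ± 3.98 CPM in controls (SD, n = 3 each). The groups overlapped in all 3, with edgeR adjusted p from 0.346 to 0.654. Of the 5 EphB receptors tested, 1 rose, 0 fell and 4 did not pass (2 at an unadjusted p below 0.05). Of all genes tested, 1.23% were called higher and 2.12% lower, and 2339 of 13560 had an unadjusted p below 0.05.

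**Figure D2:**
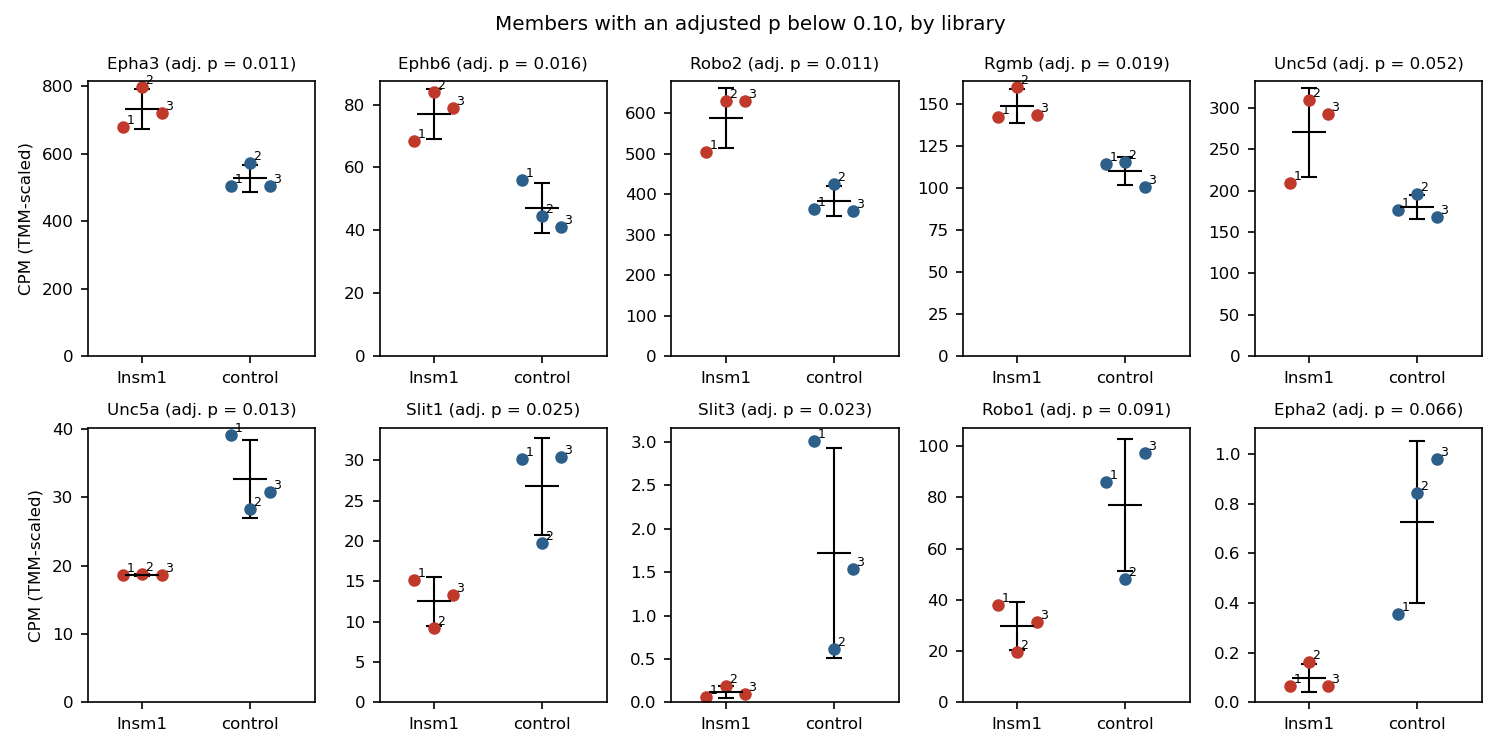
TMM-scaled CPM of the 10 genes with an adjusted p below 0.10, by library (numbered points), with Insm1 libraries left and controls right in each panel, the mean and SD as bars, from an axis that begins at 0. Epha3, Ephb6, Robo2, Rgmb and Unc5d are higher in the Insm1 libraries, and Unc5a, Slit1, Slit3, Robo1 and Epha2 lower, without overlap in any of the 10.

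None of the 8 ephrins was called (edgeR, 0 of 8 at an unadjusted p below 0.05, and 0 by DESeq2). Of all genes tested 3.35% were called by edgeR, and 8 genes are few to set beside that share. Efnb2, a transmembrane ephrin, had the highest exon-length level of the ephrins, with 393 ± 30.8 TPM in Insm1 cells and 367 ± 25.8 TPM in controls (SD, n = 3 each). It measured 699, 822 and 776 CPM in the Insm1 libraries and 651, 754 and 664 CPM in the controls, with overlap, a log2 fold change of 0.15 (SE 0.08) and an adjusted p of 0.364. Efnb1, next in level, measured 319, 327 and 299 CPM in Insm1 libraries and 302, 326 and 291 CPM in controls, with an adjusted p of 0.823. Efna2 led the lipid-anchored ephrins with 66.7, 63.7 and 68.5 CPM in Insm1 libraries and 60.4, 67.2 and 58.2 CPM in controls, also overlapping, with an adjusted p of 0.649. The other ephrins, Efnb3, Efna1, Efna3, Efna4 and Efna5, averaged 1.57 to 27.2 CPM in Insm1 cells and 1.81 to 28.6 CPM in controls.

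The Slit and Robo genes moved in both directions. Robo2, a Slit receptor of axons and migrating neurons, rose. It measured 504, 632 and 632 CPM in the Insm1 libraries, against 364, 425 and 358 CPM in the controls. All Insm1 libraries were above all controls, with means of 589 ± 73.8 CPM in Insm1 cells and 382 ± 37.5 CPM in controls (SD, n = 3 each), 1.54-fold higher, with a log2 fold change of 0.62 (SE 0.10) and an edgeR adjusted p of 0.0111. Without control 3 its adjusted p was 0.0556. Robo2 lies on chromosome 16 at 73891839 to 74411825 on the minus strand, and Robo1 on the same chromosome at 72308306 to 73046095 on the plus strand.

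Robo1, the other Slit receptor of the cortex, had values in the other direction. It measured 38.1, 19.5 and 31.5 CPM in Insm1 libraries, against 86.1, 48.0 and 97.1 CPM in controls. The groups did not overlap, and the log2 fold change was -1.37 (SE 0.33) with an edgeR adjusted p of 0.0914, so it did not pass. Of 11 alternatives tried on all libraries, 5 called it, DESeq2 (adjusted p = 0.0147) among them, and the rest did not. The edgeR fit without control 2 also called it (adjusted p = 0.00717). In the other edgeR fits with a library left out the adjusted p of Robo1 was 0.0987 to 0.29. Robo1 made up 7.19, 3.04 and 4.86% of the summed exon-length Robo level in the Insm1 libraries and 19.2, 10.3 and 21.3% in the controls, while Robo2 made up 92.3, 96.1 and 94.8% in Insm1 libraries and 78.9, 88.5 and 76.1% in controls. Robo3, which in mammals lets commissural axons cross the midline, measured 1.03, 2.40 and 0.808 CPM in Insm1 libraries and 3.59, 2.34 and 4.96 CPM in controls (adjusted p = 0.161). Robo4, the receptor of endothelium, had at most 0.097 CPM in any Insm1 library and 0 counts in every control, and 8 of 9 endothelial markers were under 1 CPM in every library.

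Slit1 fell. It measured 15.1, 9.17 and 13.3 CPM in the Insm1 libraries, against 30.1, 19.8 and 30.4 CPM in the controls. Every Insm1 library was below every control, with means of 12.5 ± 3.04 CPM in Insm1 cells and 26.8 ± 6.03 CPM in controls (SD, n = 3 each), 2.14-fold lower, with a log2 fold change of -1.09 (SE 0.22) and an edgeR adjusted p of 0.025. It was no longer called without Insm1 2 (0.0725), Insm1 3 (0.0834), control 1 (0.0921) or control 3 (0.125).

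Slit3 fell at a very low level. It had 2, 6 and 3 counts in the Insm1 libraries, against 93, 19 and 47 counts in the controls, which is 0.0646, 0.194 and 0.097 CPM in Insm1 libraries and 3.01, 0.617 and 1.53 CPM in controls. The summed counts, 11 in the Insm1 libraries and 159 in the controls, have a ratio, scaled to library size, of 0.0673 (exact 95% interval 0.0329 to 0.124, counting error only). The log2 fold change was -3.81 (SE 0.75) with an edgeR adjusted p of 0.0231, and Slit3 passed the count filter through the controls. It was called in 1 of 6 fits with a library left out, that without control 2 (0.00624), and had adjusted p from 0.0573 to 0.0888 in the 5 others. With all libraries, limma-voom (adjusted p = 0.0843) and limma on log2(exon-length TPM + 1) (0.0958) did not call it. Slit2, a secreted repellent of cortical axons, measured 44.9, 41.2 and 37.9 CPM in Insm1 libraries and 56.7, 33.0 and 51.6 CPM in controls, with overlapping groups (adjusted p = 0.677). The summed exon-length level of the 3 Slits was 15.2, 11.2 and 13.3 TPM in the Insm1 libraries and 28.4, 17.1 and 27.6 TPM in the controls, and that of the Robos 113, 136 and 138 TPM in Insm1 libraries and 98.7, 102 and 103 TPM in controls. None of the 3 Srgap genes was called (edgeR and DESeq2, 0 at an unadjusted p below 0.05). With 3.35% of all genes called by edgeR, 3 genes are few to set beside that share. Srgap3, the highest in exon-length level, measured 96.1, 110.4 and 94.8 CPM in Insm1 libraries and 108, 109.6 and 101 CPM in controls.

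Among the netrin receptors, Unc5a fell. It measured 18.6, 18.8 and 18.6 CPM in the Insm1 libraries, against 39.1, 28.3 and 30.7 CPM in the controls, and the groups did not overlap. Means were 18.7 ± 0.0968 CPM in Insm1 cells and 32.7 ± 5.7 CPM in controls (SD, n = 3 each), 1.75-fold lower, with a log2 fold change of -0.81 (SE 0.14) and an edgeR adjusted p of 0.0129. Without Insm1 2 (0.052) and without control 3 (0.0546) it did not pass. Its exons overlap those of Hk3 on the other strand by 34 bases.

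Unc5d, a repulsive receptor of migrating upper-layer cortical neurons that also binds Flrt proteins, measured 209, 309 and 293 CPM in the Insm1 libraries and 177, 196 and 168 CPM in the controls. The groups were apart and the log2 fold change was 0.58 (SE 0.13), but the adjusted p was 0.0519, just outside the threshold. DESeq2 called it (adjusted p = 0.000161), as did the edgeR fits without control 2 (0.0367) and without Insm1 1 (0.00967). In the other edgeR fits with a library left out the adjusted p of Unc5d was 0.14 to 0.185. Unc5d made up 82.3, 85.8 and 87.0% of the exon-length level of the 4 Unc5 genes in Insm1 libraries and 64.9, 75.4 and 69.2% in controls, and Unc5a 16.3, 11.5 and 12.2% in Insm1 libraries and 31.8, 24.1 and 28.0% in controls. Unc5b and Unc5c averaged 2.61 and 3.06 CPM in Insm1 cells and 2.37 and 4.62 CPM in controls, with overlapping groups.

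Dcc, the attractive netrin receptor, averaged 149.9 ± 19.6 CPM in Insm1 cells and 148 ± 14.2 CPM in controls (SD, n = 3 each), with an edgeR adjusted p of 0.95. Neogenin (Neo1), which binds netrins and Rgm proteins, measured 172, 231 and 232 CPM in Insm1 libraries and 214, 221 and 224 CPM in controls (adjusted p = 0.869). A p that misses the threshold does not show that the 2 groups are alike.

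Of the ligands of these receptors, Rgmb rose. Rgmb is a lipid-anchored ligand of neogenin and a co-receptor of bone morphogenetic proteins. It measured 142, 160.1 and 143 CPM in the Insm1 libraries, against 114, 115 and 100.5 CPM in the controls, without overlap. Means were 148 ± 10.1 CPM in Insm1 cells and 110.1 ± 8.32 CPM in controls (SD, n = 3 each), 1.35-fold higher, with a log2 fold change of 0.43 (SE 0.08) and an edgeR adjusted p of 0.0195. It was no longer called without Insm1 2 (0.0711), Insm1 3 (0.0512) or control 3 (0.0778). Rgma, the related ligand, had the opposite sign with 18.2 ± 4.81 CPM in Insm1 cells and 24.1 ± 2.67 CPM in controls (SD, n = 3 each), apart but not called (edgeR adjusted p = 0.332).

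Ntn4, a netrin that binds laminin, had the highest exon-length level of the netrins and measured 33.4, 27.2 and 24.6 CPM in Insm1 libraries and 38.4, 33.0 and 35.5 CPM in controls (adjusted p = 0.233). Ntn1, the classical attractant, was low, at 1.25 ± 0.0197 CPM in Insm1 cells and 2.06 ± 0.724 CPM in controls (SD, n = 3 each, adjusted p = 0.422). Ntn3 had no length in the annotation used and averaged 6.78 CPM in Insm1 cells and 5.46 CPM in controls, and Ntn5, which overlaps Sec1 exons, was not tested. Ntng2, the higher of the netrin-G genes, measured 3.78, 6.42 and 5.62 CPM in Insm1 libraries and 5.21, 5.13 and 5.06 CPM in controls, with an adjusted p of 0.965.

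Draxin, a secreted repellent that binds Dcc and netrin, varied with the control library. It measured 37.0, 34.6 and 33.1 CPM in Insm1 libraries, against 76.1, 27.4 and 82.7 CPM in controls. The log2 fold change was -0.83 (SE 0.41, edgeR adjusted p = 0.391), and -1.18 without control 2 (adjusted p = 0.000346). In the other edgeR fits with a library left out the adjusted p of Draxin was 0.503 to 0.667. Markers of Cajal-Retzius cells, early-born neurons of the cortical surface that make reelin, had sums that were likewise low in control 2: none of the 6 markers (Reln, Trp73, Calb2, Lhx5, Ebf2 and Ebf3) was called (edgeR; 2 at an unadjusted p below 0.05, and 1 by DESeq2), none was at 0 in any library, and their sum was 57.4, 44.3 and 37.2 CPM in the Insm1 libraries and 139, 37.7 and 136 CPM in the controls. Trp73 ranged over 1.75 to 2.71 CPM in Insm1 libraries and over 0.0649 (control 2) to 15.4 CPM in controls. Control 2 also differed from the other controls in erythroid markers, summed to 3133 CPM in control 2 and to 406 and 186 CPM in controls 1 and 3. Microglial markers summed to 57.7 CPM in control 2 and to 1.04 and 7.15 CPM in controls 1 and 3. For the Cajal-Retzius and erythroid sums (erythroid 1713 to 3669.9 CPM in Insm1 libraries) control 2 lay within the Insm1 range, and controls 1 and 3 outside it. Its microglial sum was above the Insm1 range of 8.69 to 29.9 CPM, and those of controls 1 and 3 below. The fits without control 2 thus compare groups that also differ in these sums. Control 2 was at most 1/2 of each other control in 6 of the 44 genes: Unc5b, Epha8, Draxin, Ephb1, Slit3 and Unc5c. Across all 44 it was below both other controls in 15, above both in 18 and between them in 11. Unc5b (0.162 CPM), Epha8 (0 CPM) and Slit3 (0.617 CPM) were near the floor in control 2. The share of all genes was not computed, so these counts are not a trait of the guidance genes. The part of these cell types in the values of Draxin, Ephb1, Robo1 and Slit3 was not tested.

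**Figure D3:**
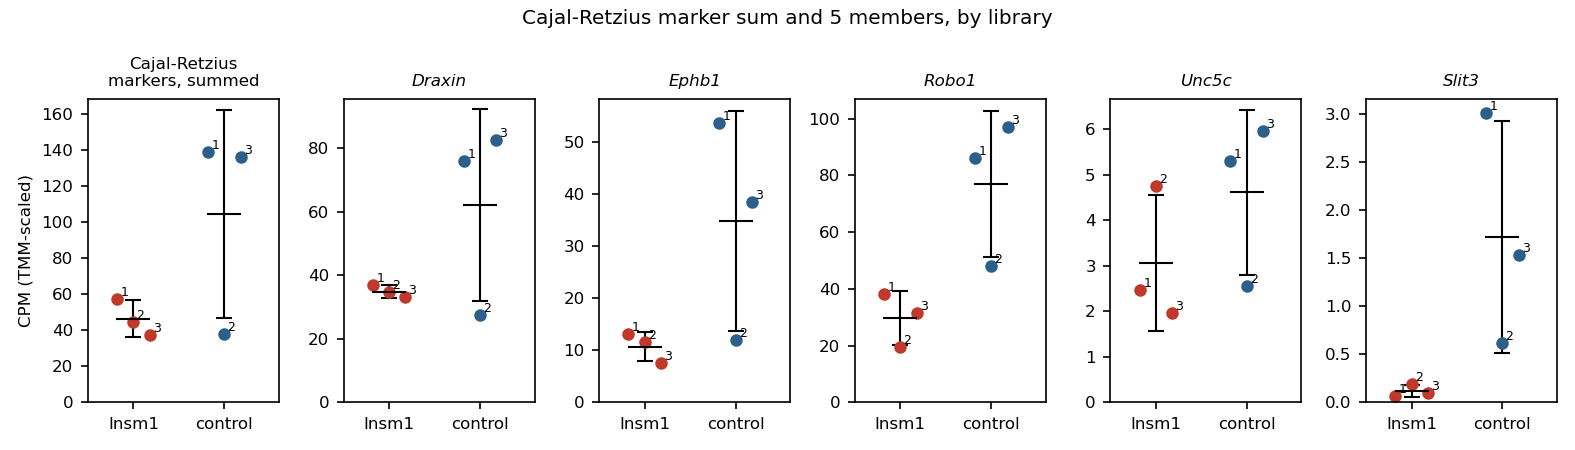
CPM by library for the summed Cajal-Retzius markers and for Draxin, Ephb1, Robo1, Unc5c and Slit3, with the mean and SD as bars, Insm1 libraries left of controls. Control 2 is the lowest control in each panel, at 37.7 CPM for the marker sum against 136 and 139 CPM in the others. The panels are a selection. Unc5b and Epha8, in which control 2 was also at most 1/2 of each other control, are not shown. Robo1, which is shown, was not among those genes.

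**Figure D4:**
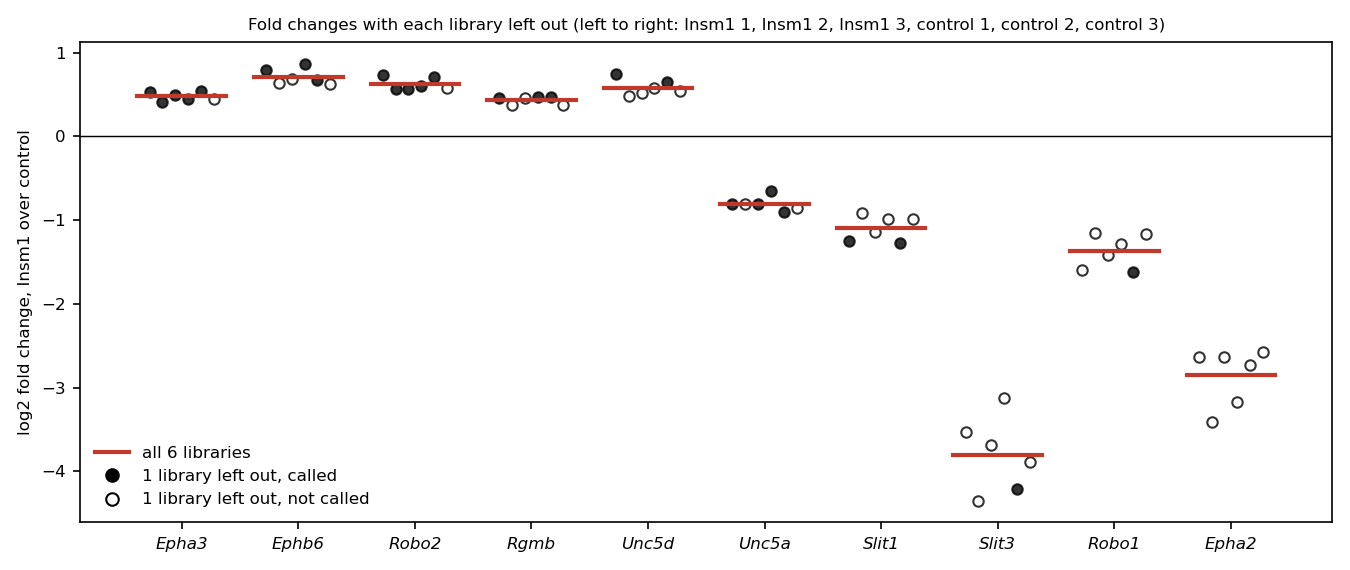
Log2 fold change of 10 genes, Insm1 over control, in all 6 libraries (line) and with 1 library left out (points, filled where called), each gene's points in the order Insm1 1 to 3, then control 1 to 3. Epha3 and Robo2 are filled in 5 of 6 fits, and Slit3 in 1 of 6, that without control 2.

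Receptors and ligands were set side by side. Among receptors 3 of 22 tested rose, 1 fell and 18 did not pass, with 8 whose groups lay apart (36.4%), and the median log2 fold change was -0.087 (10 positive, 12 negative). Among ligands 1 of 19 tested rose, 2 fell and 16 did not pass, with 4 whose groups lay apart (21.1%), and the median was 0.039 (10 positive, 9 negative). These counts include Slit3 (a ligand that fell and lay apart) and Epha2 (a receptor apart). Both passed the count filter through the controls, the group in which they were higher, so the shares are a description. Over all genes tested, 1.23% rose, 2.12% fell and 22.2% had groups apart, so the ligands' share apart was near that of all genes. The ligand median had either sign across the alternatives tried, from -0.094 (limma on log2(TPM + 0.1)) to 0.046 (no filter), and the receptor median was at or below 0. No test of the difference between the classes was made, since the members were chosen with earlier results known. The order of levels per exon length had Efnb2, Efnb1 and Epha3 at the top in both groups. On that scale Epha3 in Insm1 cells, at 297 ± 23.4 TPM, was close to Efnb1, at 321 ± 13.8 TPM (SD, n = 3 each). By the deposited TPM, which divides by genomic span, the means over all 6 libraries were 17.1 TPM for Epha3 and 210.3 TPM for Efnb1.

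**Figure D5:**
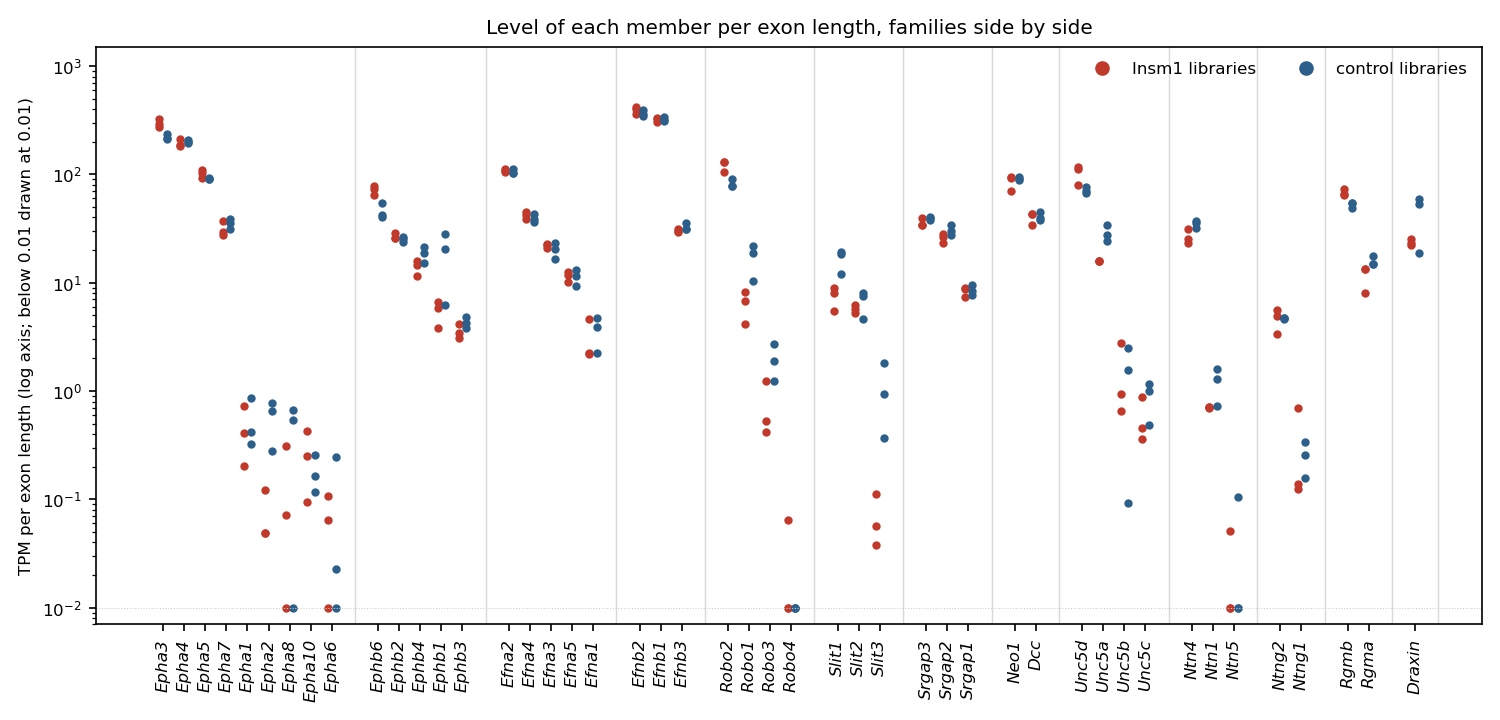
Exon-length TPM of each gene by library on a log axis, families side by side and each family sorted by mean level, with Insm1 libraries left of controls and values below 0.01 drawn at 0.01. Levels run from Efnb2, at 393 TPM in Insm1 cells and 367 TPM in controls, down to genes at or near 0.

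Other genes of these pathways were described from a list of 50 downstream and binding partners, of which 49 were tested. They were chosen for their known role, but with earlier results of these data known. Their shares beside those of all genes are therefore a description and not a test. There 1 rose and 1 fell, 4.08% of those tested against 3.35% of all genes. Sdc3, a syndecan heparan sulfate proteoglycan of the kind that assists Slit binding to Robo, measured 270.2, 300.4 and 268.0 CPM in the Insm1 libraries and 239.5, 214 and 209 CPM in the controls, 1.27-fold higher (edgeR adjusted p = 0.0352). Lrrc4c, the binding partner of netrin-G1, measured 19.2, 20.5 and 20.1 CPM in Insm1 libraries and 40.1, 28.5 and 27.9 CPM in controls, 1.62-fold lower (edgeR adjusted p = 0.0376). Each was called with 1 library left out of 6: Sdc3 without control 1 and Lrrc4c without control 2, with adjusted p from 0.0564 to 0.155 for Sdc3 and from 0.0701 to 0.107 for Lrrc4c in the other fits. With all libraries, Sdc3 had an adjusted p of 0.0715 by limma on log2(exon-length TPM + 1) and Lrrc4c one of 0.0624 by limma-voom. DESeq2 called 6 of the list, and 1017 genes of all. In 17 of the 49 genes (34.7%) the groups lay apart, against 22.2% of all genes tested, and the median log2 fold change was 0.043, against -0.009 for all genes tested.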

How the data were processed

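RNA-seq libraries were made from total RNA with a poly-dT primer and template switching, per the labels' protocols, without strand marks or molecular identifiers, so a count is a number of amplified fragments and intervals cover counting error only. The submitters' processing notes name the GRCm38 build, TopHat2 2.0.13, Bowtie and bcl2fastq. How reads were counted is not stated there. Deposited values are raw counts per Ensembl gene and TPM. The deposited TPM values of the authors follow the genomic span with introns: of 7671 genes with at least 500 counts in every library, 95.6% match it within 1% and 0.730% match the exon length, and 333 genes have no TPM. TPM was therefore also recomputed from the counts and GENCODE M21 exon lengths, and both forms were read for the most abundant gene of a family.

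Genes were filtered with filterByExpr, which left 13560, scaled by TMM (factors 0.975 to 1.021) and tested with edgeR 4.0.16 (R 4.3.3, robust quasi-likelihood fit, group only, two-sided, Benjamini-Hochberg over all genes). CPM are TMM-scaled and ± is SD over 3 libraries. Replicates of a group differed by more than counting noise (chi-square per degree of freedom 12.7 to 32.2). Genes with an adjusted p below 0.05 are described library by library, as are those below 0.10, the most abundant gene of each family, Insm1 and called partners; Ephb1 and some others were named after their values were seen. The genes and lists were chosen with earlier results of these data known. The test was tried on simulated counts. One marker list is not reported here. Alternatives were RLE and upper-quartile scaling, no filter, 5 CPM in 3 libraries, a non-robust fit, a replicate block, leaving out each library, DESeq2 1.42.0, limma-voom and limma 3.58.1 on log2(TPM + 1), log2(TPM + 0.1) and, added after seeing the data, log2(exon-length TPM + 1).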

Additional observations from a re-analysis of the deposited data

How the results depend on the processing

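The number of all genes called, 454, was 1017 with DESeq2, 96 with limma on log2(TPM + 0.1) of the deposited TPM and 100 on log2(TPM + 1), and 116 to 645 with a library left out. Guidance genes called higher, 4, numbered 0 on log2(TPM + 0.1) and 0 on log2(TPM + 1) (limma; 12 of 43 at an unadjusted p below 0.05 in both) and 0 to 5 with a library left out, and those called lower, 3, numbered 0 in both TPM fits and 0 to 6. The partner list, 2, had 6 calls with DESeq2, 0 and 0 in the TPM fits, 1 on exon-length TPM, 1 with limma-voom, 0 with the replicate block and 0 to 3 with a library left out. Deviations of same-numbered libraries were hardly correlated (-0.003, -0.022 and -0.076), which cannot settle whether those libraries were paired. With the replicate block 331 genes were called. Among guidance genes Robo1 and Unc5d were gained there and Slit3 was lost (edgeR adjusted p = 0.0786). The medians moved by less than the spread between libraries. Values that changed sign were near 0 and uncalled: Efnb1 -0.02, -0.02 and -0.01 (TPM + 0.1, TPM + 1 and exon-length TPM), Epha4 -6.5e-06 (5 CPM filter), -0.06, -0.05 and -0.04 (the 3 TPM fits), -0.0022 (upper quartile), -0.06 (without Insm1 2) and -0.02 (without control 3), Neo1 0.08 (without Insm1 1), and Ntng2 -0.05, -0.02 and -0.03 (the 3 TPM fits), -0.13 (without Insm1 2) and -0.01 (without Insm1 3). With a library left out, Epha4 ranged over -0.06 to 0.06, Neo1 over -0.12 to 0.08 and Ntng2 over -0.13 to 0.23. The cause of these changes was not tested. Of the values for single genes, 273 kept direction and side of the threshold, 54 lost the call, 12 gained it and 16 changed sign.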

Other observations

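The deposited TPM, which divides by genomic span, and exon-length TPM name different leading genes in 3 families. Among EphA receptors the deposited mean over all 6 libraries was 26.1 TPM for Epha4 and 17.1 TPM for Epha3. Among ephrin-B ligands it was 210.3 TPM for Efnb1 and 145 TPM for Efnb2, and among Unc5 receptors 3.98 TPM for Unc5a and 3.41 TPM for Unc5d. Per exon length Epha3, Efnb2 and Unc5d led their families in both groups. Epha3, Robo2 and Unc5d span long introns, and the level per length of such genes depends on which length is used, while the fold changes above come from counts.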
